A study of Mus musculus with 9 samples.

Results

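The genes described here are 10 listed members of the mouse SR splicing factor family, Srsf1, Srsf2, Srsf3, Srsf4, Srsf5, Srsf6, Srsf7, Srsf9, Srsf10 and Srsf11. Of these 10, 9 were measured, among 18820 genes on the arrays. Srsf7 was named by no probe set in the probe table and was not analysed here. The family was selected on the surgery against control difference of Srsf5, already known from these arrays, and its members were listed by name. That difference is therefore a description with no test, and the differences of the other genes support nothing about the family.

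Gene expression in the hippocampus of C57BL/6 mice, 12 to 14 weeks old, was measured on 9 Affymetrix gene arrays, 3 for each of 3 groups. The Surgery+Maresin1 group received Maresin 1 and then a tibia fracture, the Surgery group had the tibia fracture without Maresin 1, and the Control group is labelled only as control mice. Maresin 1 is a macrophage-derived lipid that promotes the resolution of inflammation, and the sources used here give no vehicle, dose or route for it. Tissue was taken 72 h after surgery, and the titles call the arrays of a group biological replicates. The labels do not say whether control mice were anaesthetised, so surgery and anaesthesia cannot be told apart here.

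SR proteins carry RNA recognition motifs at the amino-terminal end and a domain rich in arginine and serine at the other. They bind exonic enhancers in pre-mRNA and help the spliceosome choose splice sites. Kinases of the SRPK and CLK families phosphorylate the arginine-serine domain, and the importer transportin 3, encoded by Tnpo3, carries the phosphorylated proteins into the nucleus. Many SR genes limit their own output through a poison exon, whose inclusion sends the transcript to nonsense-mediated decay. The probe sets give 1 signal per gene, so isoforms with and without such an exon were not separated.

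The deposited signals were linear and not on a common scale, with array medians between 54.1 and 100.1. The levels below are log2 of the quantile-normalised signal plus 16 unless another scale is named, and the second scale, called median scaling, instead brought each array to 1 common median. All 9 measured genes lay above a background level of 5.86, the 95th percentile of 990 olfactory receptor genes. Neuronal markers were above that level for 5 of 5 measured genes, and markers of dentate granule and CA1 pyramidal neurons for 3 of 3 each. Markers of choroid plexus epithelium, a tissue that borders the hippocampus, set 2 control arrays apart. Of 10 such markers 9 were measured, their summed deposited signal was 1002 to 1018 with Maresin 1, 565 to 1086 in the Surgery group and 1096 to 15437 in the Control group, and none was at 0 in any array. Control replicate 1 was at the low end, and Control replicates 2 and 3 were the high arrays. In bulk tissue, fewer cells of a type and less RNA per cell cannot be told apart.

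Srsf5, the gene by which the list was chosen, is a regulator of alternative splicing also called SRp40. By the brightest probe set of each gene, it varied most of the 9 genes, over 0.56 on the log2 scale across the arrays. Its levels were 9.25, 9.21 and 9.43 in the Surgery+Maresin1 arrays, 9.21, 9.13 and 8.99 in the Surgery arrays and 9.55, 9.35 and 9.40 in the Control arrays. All 3 Surgery arrays lay below all 3 Control arrays, and the Maresin 1 arrays overlapped both. The group means were 9.29 ± 0.12 with Maresin 1, 9.11 ± 0.11 after surgery alone and 9.43 ± 0.10 in controls (SD, n = 3 each). The difference of surgery minus control was -0.32 on the log2 scale with a standard error of 0.08, and 1.07% of all genes had a lower one. Under median scaling the levels were 9.24, 9.29 and 9.22 with Maresin 1, 9.23, 9.26 and 9.10 after surgery alone and 9.63, 9.05 and 9.41 in controls. Control replicate 2 was then the lowest of the 9 arrays, so the groups overlapped, and the difference of surgery minus control was -0.17. Against Control replicate 1 alone, the control array low in choroid plexus markers, the difference was -0.44.

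Srsf6, also called SRp55 and known as a regulator of tau exon choice in human cells, had levels of 9.28, 9.35 and 9.40 with Maresin 1, 9.18, 9.21 and 9.18 after surgery alone and 9.40, 9.62 and 9.25 in controls. The Surgery arrays were closely grouped and lay below every array of the other groups. The difference of surgery minus control was -0.23 (standard error 0.08, limma adjusted p = 0.729), and it was -0.13 without Control replicate 2, its highest array. Median scaling gave -0.06 with overlapping groups.

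Srsf3, also called SRp20, is among the smallest SR proteins and also takes part in mRNA export. Its levels were 10.32, 10.35 and 10.26 with Maresin 1, 10.21, 10.25 and 10.37 after surgery alone and 10.16, 10.15 and 10.03 in controls. Every array of operated mice lay above every Control array. The difference of surgery minus control was 0.16 (standard error 0.06, limma adjusted p = 0.712), and 91.8% of genes had a lower one. Under median scaling the levels were 10.29, 10.42 and 10.03 with Maresin 1, 10.26, 10.40 and 10.46 after surgery alone and 10.25, 9.84 and 10.04 in controls. The Surgery arrays again lay above the Control arrays, with a difference of 0.33, while Maresin 1 replicate 3 lay among the controls.

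Srsf10, also called SRp38, represses splicing when it is dephosphorylated, as after heat shock. It had levels of 10.21, 10.42 and 10.32 with Maresin 1, 10.16, 10.31 and 10.40 after surgery alone and 10.20, 10.30 and 10.06 in controls. The 3 groups overlapped, and the difference of surgery minus control was 0.11 with a standard error of 0.08 (limma adjusted p = 0.848).

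**Figure D1:**
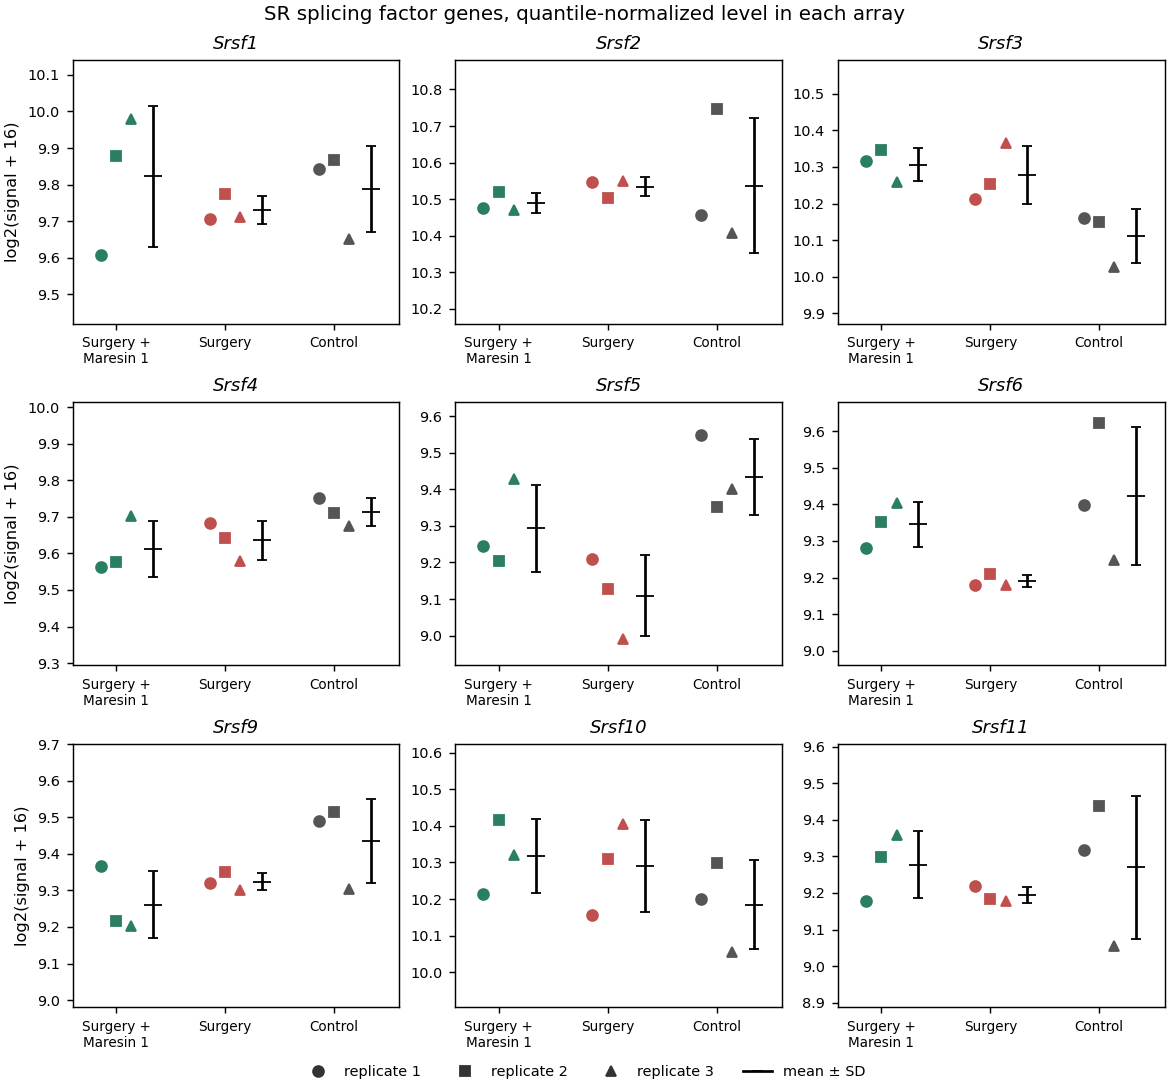
Level of each measured SR gene on each array, as log2 of the quantile-normalised signal plus 16, with 1 panel per gene and points for the Surgery+Maresin1, Surgery and Control arrays. Bars give the group mean ± SD, and each panel has its own axis range. In the Srsf5 panel all 3 Surgery points lie below all 3 Control points, and in the Srsf3 panel all Control points lie lowest.

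The sequences before transcript start sites of Srsf3, Srsf10, Srsf5 and Srsf6 are shown because the surgery minus control differences of the first pair were above 0 and those of the other pair below 0 on the quantile scale. Each run is the 250 bases before a RefSeq transcript start of the gene in GRCm38.p6, on the plus strand, 5′ to 3′, and the Srsf10 window lies inside the annotated span of that gene. The regions are chr17:29032410-29032659 for Srsf3, chr4:135855821-135856070 for Srsf10, chr12:80945249-80945498 for Srsf5 and chr2:162931258-162931507 for Srsf6. Capitals mark the CCAAT box (CCAAT), the GC box (GGGCGG) and the core of the cyclic AMP response element (TGACG), each on either strand.
Srsf3: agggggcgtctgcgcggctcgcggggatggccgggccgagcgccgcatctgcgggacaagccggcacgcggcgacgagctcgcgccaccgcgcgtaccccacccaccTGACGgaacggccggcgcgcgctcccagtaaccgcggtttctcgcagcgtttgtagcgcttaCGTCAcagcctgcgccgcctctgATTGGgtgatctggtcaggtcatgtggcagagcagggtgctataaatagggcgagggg
Srsf10: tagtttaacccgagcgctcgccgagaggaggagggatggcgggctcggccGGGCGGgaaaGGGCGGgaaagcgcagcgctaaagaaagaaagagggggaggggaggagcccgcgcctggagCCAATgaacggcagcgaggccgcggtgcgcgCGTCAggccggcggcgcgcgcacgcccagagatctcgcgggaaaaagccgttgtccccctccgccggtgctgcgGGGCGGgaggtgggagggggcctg
Srsf5: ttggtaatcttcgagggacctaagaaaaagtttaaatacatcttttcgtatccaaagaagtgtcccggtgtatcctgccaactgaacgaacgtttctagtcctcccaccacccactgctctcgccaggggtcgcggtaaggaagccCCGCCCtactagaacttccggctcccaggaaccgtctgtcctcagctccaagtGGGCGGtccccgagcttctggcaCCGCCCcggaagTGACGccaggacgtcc
Srsf6: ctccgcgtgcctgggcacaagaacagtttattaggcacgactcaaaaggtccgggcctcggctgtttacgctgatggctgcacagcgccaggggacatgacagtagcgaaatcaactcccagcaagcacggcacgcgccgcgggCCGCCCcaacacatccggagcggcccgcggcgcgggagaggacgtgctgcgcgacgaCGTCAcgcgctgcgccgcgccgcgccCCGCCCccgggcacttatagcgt

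The Srsf5 window held 3 GC boxes and 1 response element core, and the Srsf6 window 2 and 1. The Srsf3 window held no GC box, 1 CCAAT box and 2 cores, and the Srsf10 window 3 GC boxes, 1 CCAAT box and 1 core. Among 32851 RefSeq promoter windows of the same length, 33.9% held a CCAAT box, 32.7% a GC box and 17.8% a core. The GC content was 56.8% in the Srsf5 window, the lowest of the 13 windows of the 10 listed genes, against a median of 68.4% over those 13 and 52.4% over all windows. A match of letters is a description and not a binding site.

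Srsf1, the founding SR protein, which shuttles between nucleus and cytoplasm, had levels of 9.61, 9.88 and 9.98 with Maresin 1, 9.71, 9.78 and 9.71 after surgery alone and 9.84, 9.87 and 9.65 in controls. Srsf2, also called SC35, had levels of 10.48, 10.52 and 10.47 with Maresin 1, 10.55, 10.50 and 10.55 after surgery alone and 10.46, 10.75 and 10.41 in controls. Neither gene separated the groups on this scale. Under median scaling the 3 Surgery arrays of Srsf2 lay above the arrays of both other groups, with a difference of surgery minus control of 0.15, against -0.003 on the quantile scale.

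Srsf4, also called SRp75, the longest of the classical SR proteins, varied least, over 0.19 on the log2 scale. Its levels were 9.56, 9.58 and 9.70 with Maresin 1, 9.68, 9.64 and 9.58 after surgery alone and 9.75, 9.71 and 9.68 in controls. The arrays of operated mice overlapped those of controls. The levels of Srsf9, also called SRp30c, were 9.37, 9.22 and 9.20 with Maresin 1, 9.32, 9.35 and 9.30 after surgery alone and 9.49, 9.51 and 9.30 in controls. Control replicates 1 and 2 were its highest arrays, and Control replicate 3 lay among those of operated mice.

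Srsf11, which acts in mouse neuronal cells on the inclusion of microexons, had levels of 9.18, 9.30 and 9.36 with Maresin 1, 9.22, 9.18 and 9.18 after surgery alone and 9.32, 9.44 and 9.06 in controls. Its highest and lowest arrays were both controls. Control replicate 2 was the highest array for Srsf2, Srsf6, Srsf9 and Srsf11, and Control replicate 3 the lowest for Srsf2, Srsf3, Srsf10 and Srsf11.

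The first comparison, surgery against control, asks what the fracture was followed by in the hippocampus. On the quantile scale 2 of the 9 genes had a difference above 0, Srsf3 and Srsf10, and 7 had one below 0. Limma called none of the 9 at an adjusted p under 0.05, as it called 0.00% of all genes. At an unadjusted p under 0.05, 3 of the 9 passed, Srsf3 on the higher side and Srsf5 and Srsf6 on the lower side, against 6.21% of all genes. The same 3 genes had groups without overlap, against 11.5% of all genes. These counts include Srsf5, by which the list was chosen, and nothing is read from them. For the 6 other genes the adjusted p lay between 0.825 and 0.996, with differences of -0.11 for Srsf9, -0.08 for Srsf4 and for Srsf11, -0.06 for Srsf1, -0.003 for Srsf2 and 0.11 for Srsf10.

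The sign of most differences depended on the scale. The median over the 9 genes was -0.08 on the quantile scale, beside 0.02 over all genes, and 0.09 under median scaling, beside 0.10 over all genes. Under median scaling 7 of the 9 genes were above 0, and Srsf5 and Srsf6 were below 0. There, 2 genes, Srsf2 and Srsf3, had groups without overlap, against 13.6% of all genes. Median scaling shifted the 3060 genes within the signal range of these 9 more than it shifted all genes, to a median of 0.18, against 0.01 on the quantile scale. Relative to those 3060 genes the differences were alike on both scales, at -0.33 (quantile) and -0.34 (median scaling) for Srsf5, -0.24 on both for Srsf6, 0.16 and 0.15 for Srsf3, and 0.10 and 0.09 for Srsf10. Subtracting the median of genes of like signal takes out most of the shift between the scales. The likeness of the 2 scales was therefore largely fixed in advance and says nothing about the genes. This comparison by signal range was added after the values were seen.

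**Figure D2:**
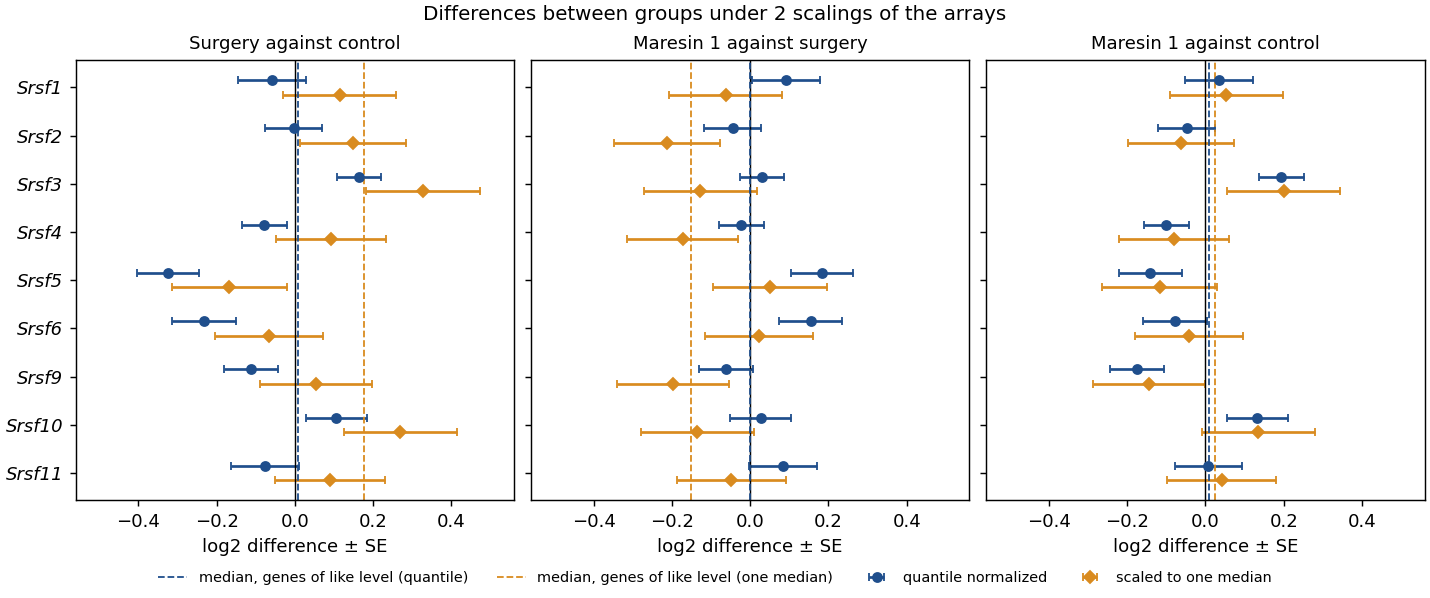
Log2 difference of each measured SR gene in the 3 comparisons, with standard errors, for quantile normalisation and for median scaling; dashed vertical lines mark the medians of the 3060 genes of like signal on each scale. In surgery against control, Srsf5 lies at -0.32 and -0.17 on the 2 scales and Srsf3 at 0.16 and 0.33.

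The second comparison set the Surgery+Maresin1 arrays against the Surgery arrays, and so asks what Maresin 1 added. Limma called none of the 9 genes, as it called 0.00% of all genes, and 1 of the 9, Srsf5, passed at an unadjusted p under 0.05, against 5.66% of all genes. The difference of Srsf5 was 0.18 (standard error 0.08, limma adjusted p = 0.859), with overlapping groups. Srsf6 had a difference of 0.15 (standard error 0.08, limma adjusted p = 0.859) and was the only one of the 9 whose groups did not overlap, against 13.0% of all genes. Under median scaling the differences were 0.05 for Srsf5 and 0.02 for Srsf6, both with overlap, while the Maresin 1 arrays of Srsf2 and Srsf4 lay below the Surgery arrays, 2 of the 9 against 15.7% of all genes. This comparison uses the same Surgery arrays as the first, so a low Surgery value enters both with opposite sign. The remaining 7 genes had quantile differences between -0.06 for Srsf9 and 0.09 for Srsf1. The median of the 9 was 0.03, beside -0.02 over all genes, and under median scaling it was -0.13, beside -0.09 over all genes.

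Between Maresin 1 with surgery and control, limma called none of the 9 genes, against 0.0850% of all genes. At an unadjusted p under 0.05, 2 of the 9 passed, Srsf3 and Srsf9, against 11.5% of all genes. Srsf3 had a difference of 0.19 (standard error 0.06, limma adjusted p = 0.202), and 1 of the 9 genes, Srsf3, had groups without overlap, against 14.3% of all genes. Under median scaling its difference was 0.20, with overlap, and none of the 9 had groups without overlap, against 4.72% of all genes. Srsf9 had a difference of -0.17 (standard error 0.07, limma adjusted p = 0.342), with overlap. Srsf5 was at -0.14 (standard error 0.08, limma adjusted p = 0.550) and Srsf6 at -0.08 (limma adjusted p = 0.797). The median of the 9 was -0.05, beside -0.003 over all genes, with 4 genes above 0 and 5 below. The Control arrays are shared with the first comparison.

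Ratios of 2 SR genes within an array need no scaling between arrays. The pairs were chosen after the values were seen, and only a change of a ratio between arrays can be read, since different probe sets have different brightness. The deposited signals of Srsf3 were 1238, 1199 and 1170 with Maresin 1, 837, 1427 and 1523 after surgery alone and 1546, 847 and 937 in controls. Those of Srsf5 were 588, 538 and 661 with Maresin 1, 404, 639 and 583 after surgery alone and 999.99, 483 and 599 in controls. Both genes were brightest on Control replicate 1, the array with the highest median.

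The ratio of Srsf3 to Srsf5 was 2.11, 2.23 and 1.77 with Maresin 1, 2.07, 2.23 and 2.61 after surgery alone and 1.55, 1.75 and 1.56 in controls. All 6 arrays of operated mice lay above all 3 Control arrays, the closest being Maresin 1 replicate 3 and Control replicate 2. The mean ratio was 2.03 ± 0.24 with Maresin 1, 2.31 ± 0.28 after surgery alone and 1.62 ± 0.12 in controls (SD, n = 3 each). The Surgery mean was 1.42 times the Control mean, the Maresin 1 mean was 1.25 times the Control mean, and the Maresin 1 and Surgery arrays overlapped. On the log2 scale, the difference of Srsf3 minus that of Srsf5 was 0.49 for surgery against control and 0.33 for Maresin 1 against control, and under median scaling it was 0.49 and 0.32.

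The ratio of Srsf3 to Srsf6 was also higher without overlap in both operated groups than in controls, 1.19 times with Maresin 1 and 1.32 times after surgery alone. It was lower with Maresin 1 than after surgery alone without overlap, at 0.901 times the Surgery mean. The mean ratio of Srsf10 to Srsf5 after surgery alone was 1.36 times that in controls, and that of Srsf10 to Srsf6 was 1.27 times, both without overlap. Of the 36 pairs among the 9 genes, 17 had ratios without overlap between surgery and control, or 47.2%, against 13.0% of 4680270 pairs among the 3060 genes of the same signal range. Between Maresin 1 and surgery 10 of the 36 did, against 15.3% of those pairs, and between Maresin 1 and control 9 of the 36, against 22.9%. Pairs share genes, and 8 of the 36 hold Srsf5, so these counts are a description.

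**Figure D3:**
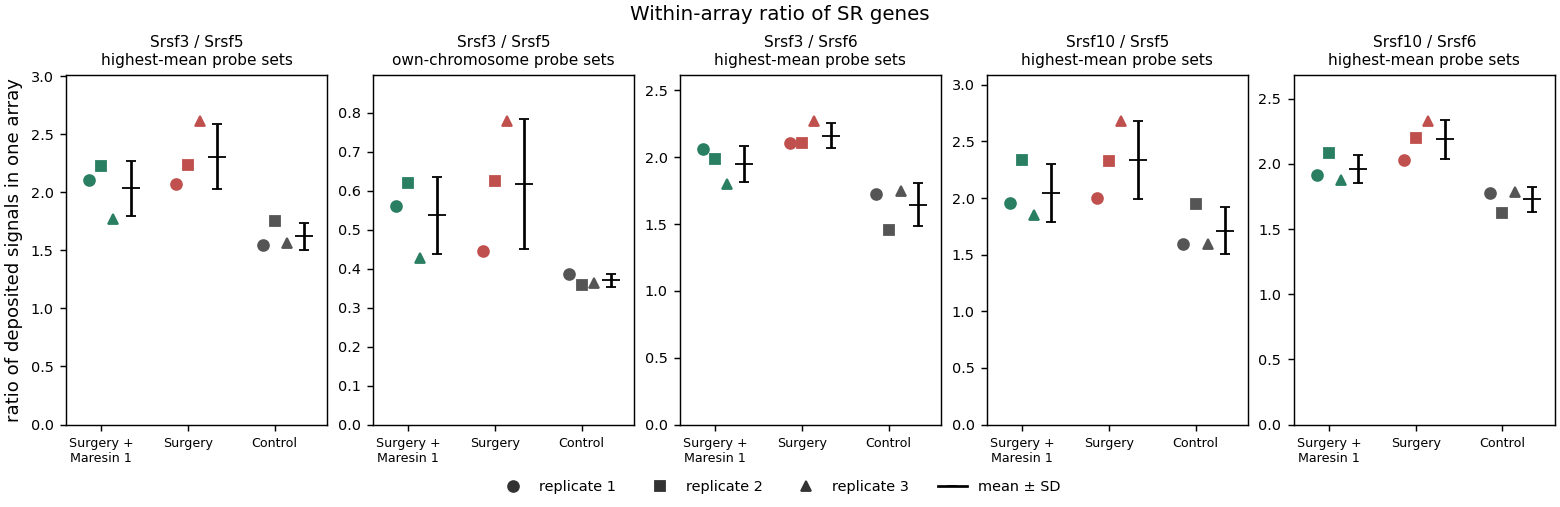
Ratio of deposited signals of 2 SR genes on each array, with points for the Surgery+Maresin1, Surgery and Control arrays. Bars give the group mean ± SD. Each pair has 1 panel with the brightest probe sets. A further panel for Srsf3 to Srsf5 uses probe sets numbered among those of the genes' own chromosomes. With the brightest probe sets, the ratio of Srsf3 to Srsf5 lies between 1.55 and 1.75 in the Control arrays. In the arrays of operated mice it lies between 1.77 and 2.61.

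Markers of some other cell types also separated groups, given here as mean centred log2 levels. Of 6 endothelial markers 5 were measured. Their level was -0.14 to 0.32 with Maresin 1, 0.12 to 0.15 after surgery alone and -0.31 to -0.22 in controls. Their summed deposited signal was 1520 to 2237 with Maresin 1, 1403 to 2312 after surgery alone and 1195 to 1981 in controls, and none was at 0. The level of 6 of 6 microglial markers was -0.09 to 0.15 with Maresin 1, 0.03 to 0.10 after surgery alone and -0.10 to -0.03 in controls, with summed signals of 2092 to 2711, 1722 to 2960 and 1797 to 2969 in the same groups. That of 2 measured red cell markers of 4 was -0.25 to 0.23 with Maresin 1, 0.06 to 0.70 after surgery alone and -0.32 to -0.19 in controls, with summed signals of 88 to 186, 96 to 303 and 83 to 130. For the microglial and red cell lists the Surgery arrays lay above the Control arrays. Of the 2 red cell markers only 1, Alas2, had a mean level above background, and Slc4a1 was at 5.51. For the endothelial list every array of operated mice lay above every Control array. The 3 dentate granule neuron markers were at 0.08 to 0.24 with Maresin 1, -0.08 to -0.07 after surgery alone and -0.37 to 0.11 in controls, with summed signals of 2612 to 2861, 1740 to 2846 and 2156 to 2671. The 5 measured neuronal markers of 6 were at -0.03 to -0.02 with Maresin 1, 0.01 to 0.02 after surgery alone and -0.007 to 0.02 in controls, with summed signals of 18214 to 20141, 15644 to 24538 and 17123 to 29630. These last lists separated the Maresin 1 arrays from the Surgery arrays. The lists for astrocytes, CA1 pyramidal neurons, mature oligodendrocytes and meningeal and vascular fibroblasts overlapped between groups in every comparison. No marker of these lists was at 0 in any array, and the part of any of them in the SR gene values was not tested.

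For 3 of the SR genes the probe table lists more than 1 probe set, and this limits which transcript their values describe. For Srsf5 the brighter probe set, used above, is numbered among probe sets of chromosome 4, with 20 of the 20 nearest naming genes there, although the gene lies on chromosome 12. The other Srsf5 probe set, numbered among those of chromosome 12, had levels of 9.18, 9.14 and 9.39 with Maresin 1, 9.11, 9.07 and 8.94 after surgery alone and 9.48, 9.31 and 9.33 in controls. Its Surgery arrays lay below those of both other groups, whereas those of the brighter probe set overlapped the Maresin 1 arrays. The difference of surgery minus control was -0.34 with a standard error of 0.08, and that of Maresin 1 minus surgery was 0.20 (limma adjusted p = 0.854).

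For Srsf3, on chromosome 17, the probe set used is numbered among those of chromosome 3, and the one numbered among those of chromosome 17 was dimmer. That dimmer probe set had levels of 8.36, 8.47 and 8.16 with Maresin 1, 8.01, 8.42 and 8.60 after surgery alone and 8.19, 7.80 and 7.93 in controls. Control replicate 1 now lay among the arrays of operated mice. The difference of surgery minus control was 0.37 (standard error 0.14, limma adjusted p = 0.786). With the probe sets numbered among those of the genes' own chromosomes, the ratio of Srsf3 to Srsf5 was 0.562, 0.619 and 0.428 with Maresin 1, 0.446, 0.624 and 0.778 after surgery alone and 0.387, 0.357 and 0.364 in controls. The operated arrays lay above the controls there too. The other Srsf3 probe set, numbered among those of chromosome 15, gave ratios to Srsf5 of 1.67, 1.78 and 1.41 with Maresin 1, 1.67, 1.77 and 2.11 after surgery alone and 1.22, 1.41 and 1.23 in controls. With it the Surgery arrays lay above the controls, and Maresin 1 replicate 3 overlapped Control replicate 2.

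For Srsf10, on chromosome 4, the probe set numbered among those of its own chromosome gave 0.10 for surgery minus control, against 0.11 for the brighter one. Probes may be shared between a gene and near-identical copies elsewhere, so the levels of Srsf3, Srsf5 and Srsf10 are uncertain to that extent. These probe sets were compared after the values were seen.

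By a root mean square distance between centred log2 levels over the 9 arrays, among 12771 genes, the genes nearest to Srsf5 were Ankrd24 at 0.0742, Zfp133-ps at 0.0780, Brca2 at 0.0806, Cplane1 at 0.0816 and Taf15 at 0.0826. Among SR genes Srsf4 was the nearest to Srsf5, at 0.120, and Srsf3 the farthest, at 0.241. The distance of Srsf3 from Srsf5 was the largest of the 36 pairs, whose median was 0.125, and the smallest was 0.068, between Srsf1 and Srsf11 and between Srsf3 and Srsf10.

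In the wider splicing machinery limma called none of 108 measured genes of 5 lists in any comparison. At an unadjusted p under 0.05, 12 of them passed in surgery against control, against 6.21% of all genes, 13 in Maresin 1 against surgery, against 5.66%, and 20 in Maresin 1 against control, against 11.5%. Under median scaling 6, 2 and 5 of the 108 passed in these comparisons, or 5.6%, 1.9% and 4.6%, so the quantile counts depended on the scaling. Of all 18820 genes on that scale, 853 passed on the higher side and 230 on the lower in surgery against control. These counts were 103 and 587 in Maresin 1 against surgery and 342 and 313 in Maresin 1 against control. Of 28 SR-related proteins 12 had differences above 0 and 16 below 0 in surgery against control, with a median of -0.03. Tra2b, a partner of SR proteins on exonic enhancers, was at 0.16 for surgery against control (standard error 0.05, limma adjusted p = 0.640). It was at 0.18 for Maresin 1 against control (limma adjusted p = 0.162), and neither comparison showed overlap on the quantile scale. Tra2a, its paralogue, was at 0.20 and 0.32 in those comparisons. The speckle scaffold genes Srrm2 and Son were at -0.13 and -0.19 in surgery against control. On the quantile scale 11.5% of all genes had groups without overlap in surgery against control, and 14.3% in Maresin 1 against control. Under median scaling none of the 28 SR-related genes had groups without overlap in Maresin 1 against control, against 4.72% of all genes.

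Of 13 measured kinase, phosphatase and importer genes, 7 were above 0 and 6 below 0 in surgery against control. Tnpo3 was at 0.09, Srpk1 at 0.00, Clk1 at 0.04 and Clk4 at -0.08. In Maresin 1 against surgery under median scaling, Clk4 was at 0.11, with overlap, and Clk1 was at 0.07. On the quantile scale Clk4 was at 0.25 there (standard error 0.12, limma adjusted p = 0.859) without overlap, and Clk1 was at 0.21. Groups without overlap on the quantile scale were found for 13.0% of all genes in that comparison. Of 25 hnRNP genes, whose proteins often oppose SR proteins at exons, 13 were above 0 and 12 below 0 in surgery against control. In Maresin 1 against surgery 19 were above 0 and 6 below 0, with a median of 0.05, where 41.7% of all genes were above 0. Under median scaling the hnRNP counts turned round, with 3 above 0 and 22 below 0 and a median of -0.11. On that scale 77.0% of all genes were below 0, with a median of -0.09.

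Of 19 genes for splice site recognition 11 were above 0 and 8 below 0 in surgery against control, and Snrnp70, the U1 protein that contacts SR proteins, was at -0.21. Of 23 tissue-restricted splicing regulators 9 were above 0 and 14 below 0. The neuronal regulators Nova1 and Rbfox1 were at 0.01 and -0.09. Srsf12, an SR gene outside the list, was at -0.05 in surgery against control and in Maresin 1 against surgery. Under median scaling these signs changed for many genes, and all 25 hnRNP genes were above 0 in surgery against control. On that scale, 75.7% of all genes were above 0 too, and 97.9% of the 3060 genes within the signal range of the SR genes.

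**Figure D4:**
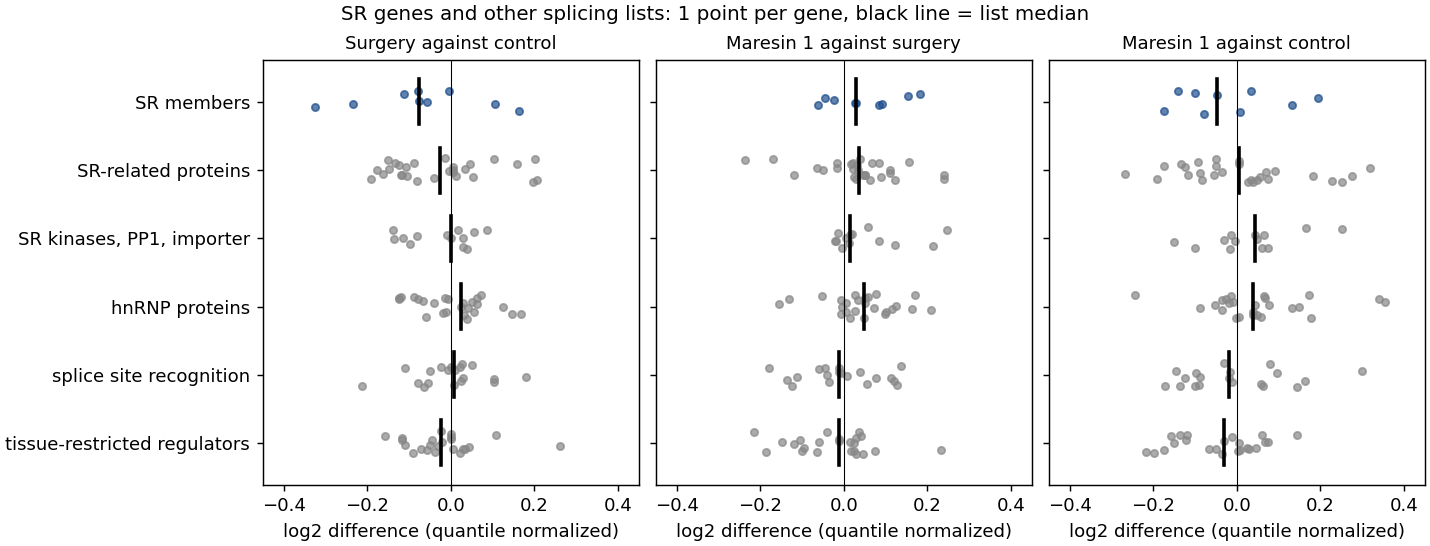
Log2 differences on the quantile scale of the SR genes and the genes of 5 other splicing lists in the 3 comparisons, 1 point per gene and a bar at each median. The points of every list lie on both sides of 0, and the median of the SR genes in surgery against control is -0.08.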

How the data were processed

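Hippocampal RNA was hybridised to 9 arrays, 6 µg of total RNA each. The authors deposited a linear signal intensity for each of 35556 probe sets, which the submitters' processing notes trace to Affymetrix Expression Console, with algorithm and version not given in the sources used here. Of these, 21218 probe sets named 1 gene in the probe table, 1881 named several, and 12457 were not listed there; 21185 of the 21218 matched a current gene by gene ID. Each of 18820 genes was given its one-gene probe set with the highest mean. Intensities were quantile normalised, 16 was added and log2 taken. limma 3.58.1 in R 4.3.3 fitted the 3 groups together (eBayes with a variance trend), and Benjamini-Hochberg adjustment ran over all 18820 genes, with calls at an adjusted p under 0.05. Arrays have no read depth, and 3 per group limit the precision. Promoters are RefSeq windows of GRCm38.p6.

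On data simulated for surgery against control over 18820 genes, the fit recovered 22% of changed genes at a log2 change of 0.3, 72% at 0.5 and 100% at 1. It also called 9 unchanged genes. The noise was drawn for each gene on its own around quantile-scale means, so uncertainty of the scaling between arrays is not part of these shares.

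The members, the splicing and marker lists and the genes named from them were chosen with earlier results of these data known. All 10 listed members are accounted for, other splicing genes were named by role, and the 5 genes nearest to Srsf5 by distance. Same-numbered arrays did not deviate together, with 9 correlations of deviations from the group means between -0.24 and 0.05, so the numbers were not treated as pairs. Comparisons share arrays, and p-values measure the spread between these arrays. Alternatives covered normalisation, pseudocount, filter, probe set, model and left-out arrays.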

Additional observations from a re-analysis of the deposited data

How the results depend on the processing

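None of the 9 SR genes was called in any of the 3 comparisons under any of the 21 alternatives, of which 2, using probe sets numbered among those of the genes' own chromosomes, were added after the data were seen. With each array scaled to 1 median, the median difference of the 9 genes was 0.0926 for surgery against control, against -0.08 in the reported fit, and -0.13 for Maresin 1 against surgery, against 0.03. With the added probe sets and that scaling they were 0.0926 and -0.0766. Leaving out 1 array in turn gave medians of -0.13 to -0.02 for surgery against control, 0.002 to 0.08 for Maresin 1 against surgery and -0.11 to 0.0576 for Maresin 1 against control, where the reported value was -0.05 and 0.0576 came without Control replicate 2. For surgery against control, the Srsf5 difference lay between -0.44 and -0.17, the Srsf6 difference between -0.32 and -0.06 and the Srsf3 difference between 0.12 and 0.50. The difference of Srsf3 minus that of Srsf5 lay between 0.39 and 0.71 under the 18 alternatives run for surgery against control. It lay between -0.24 and -0.05 under the 17 for Maresin 1 against surgery. Under the 18 for Maresin 1 against control it lay between 0.27 and 0.50. This pair was chosen after the values were seen and holds Srsf5. Settings that change only the error or the genes kept leave this difference as it was. A change of scaling between arrays largely cancels in it, so its sign is a description. Over all genes, surgery against control gave 0 calls in the reported fit, 37 with median scaling, 42 with no normalisation and 169 without Control replicate 1, and Maresin 1 against control gave 16, 38, 43 and 245 under the same settings, 4 against Control replicate 1 alone, and 0 with no variance trend, with only the groups compared, without Control replicate 2 and without any one Maresin 1 array. With the replicate block the Maresin 1 against control count was 0, the adjusted p of Srsf3 for surgery against control was 0.987, and no SR gene was called; arrays with the same number share only that number. The cause of these changes was not tested. Precision is limited by 3 arrays per group, and signals of near-identical copies cannot be separated.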

Other observations

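Malat1, a nuclear RNA held in speckles where SR proteins gather, was at 0.40 on the log2 scale in Maresin 1 against surgery (limma adjusted p = 0.859), without overlap between the groups, at 0.36 in Maresin 1 against control (limma adjusted p = 0.283), with overlap, and at -0.03 in surgery against control. Under median scaling the Maresin 1 against surgery value was 0.21, with overlap. On the quantile scale 13.0% of all genes had groups without overlap in that comparison. Of the 13 RefSeq promoter windows of the 10 listed SR genes, 12 held a GC box (GGGCGG), against 32.7% of all windows, 8 an Ets core (CCGGAA), against 12.0%, and 3 a CCAAT box, against 33.9%. None held the palindromic cyclic AMP response element TGACGTCA or an E-box (CACGTG), found in 1.55% and 6.02% of all windows, and 2 held a TATA box (TATAAA), against 12.4%. Both strands were searched, the core TGACG is contained in TGACGTCA, and several windows of 1 gene overlap.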
